A study of Mus musculus with 8 samples.

Results

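The ATP-binding cassette (ABC) genes encode proteins that use ATP to move lipids, conjugated metabolites, peptides, haem or drugs across membranes, together with a few relatives that act on ribosomes or ion channels. They were taken as every gene whose name on the array is Abc followed by a subfamily letter from a to g, a number and, where present, a further letter. This gave 50 genes on 113 probes among 36826 gene names, with 16 genes in subfamily A, 10 in B, 10 in C, 4 in D, 1 in E, 3 in F and 6 in G. A gene was tested if some probe of it was well above background in every kidney of some group, which held for 38 of the 50 ABC genes and 21264 genes in all. Family members that carry other symbols (Cftr, Tap1 and Tap2) fall outside the naming rule and are given beside their subfamilies.

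The 8 arrays, each of 1 colour, report the RNA of left kidneys taken 24 h after surgery from 4 groups of 2 mice. The sham model (mice 1 and 4) had an incision of the abdominal wall only. The IRI-AKI model (mice 30 and 34, called IRI) lost the right kidney and had the left kidney clamped for 45 min and reperfused, which gives acute kidney injury. Mice 6 and 7 (5100 mimic) and mice 1 and 5 (control-miRNA) were injured in the same way, but 2 days earlier had received 5 nmol of the mimic or of a control miRNA in 200 µl by the tail vein, carried on polyethyleneimine nanoparticles. These 3 groups together are called the injured kidneys. Both mice of a group were taken as separate animals from their numbers in the labels, while the labels used here name neither strain nor sex nor age. The clamp cannot be told apart from the loss of the other kidney, nor the injection from the position on the slide, since the arrays of the injected mice share 1 slide row. The injected miRNA is a copy of mature mouse miR-5100, which RefSeq places at chr11:60728698-60728718 on the plus strand of GRCm38.p6. It is printed here because it is the only agent that separates the mimic group from its control, with the seed, bases 2 to 8, in capitals.
mmu-miR-5100: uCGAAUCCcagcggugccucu

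In the kidney, ABC pumps of the proximal tubule complete the secretion of organic anions, drugs and urate that uptake carriers of the SLC families bring in from the blood. Abcc2, Abcc4, Abcg2 and the P-glycoproteins Abcb1a and Abcb1b sit in the apical membrane. Abcc1, Abcc3 and Abcc6 are basolateral proteins of epithelial cells. The bulk samples used here do not place any of these genes in a segment of the tubule. Other members serve every cell: Abca1 and Abcg1 export cholesterol to lipoproteins, Abcb8 and Abcb10 lie in mitochondria, subfamily D serves peroxisomes and lysosomes, Abce1 splits ribosomes, and Abcc9 is the sulfonylurea receptor of a potassium channel in blood vessels.

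Levels are log2 processed signals minus the 75th percentile of the array, so a difference of 1 is a 2-fold difference. Differences are given with the moderated standard error (SE) from limma on all 8 arrays, and a gene is said to have risen or fallen if its Benjamini-Hochberg adjusted p over the 21264 genes was below 0.05. The 75th percentile itself was 408 and 476 on sham arrays, 468 and 600 on IRI arrays, 308 and 242 on mimic arrays and 500 and 416 on control-miRNA arrays (mice in the order above), so the mimic arrays were the dimmest. All 8 genes of a tubular injury list rose in the injured kidneys. All 10 proximal tubule markers were above background on every array, and 8 of them fell. In these bulk samples fewer cells of a type and less RNA per cell cannot be told apart, and with 2 mice a group an exact two-sided permutation test of a single gene cannot go below p = 0.333.

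In IRI against sham kidneys 3 of the 38 tested ABC genes rose and 7 fell, beside 9.45% and 8.85% of all genes tested. One of the 7, Abca9, entered the test through the sham arrays alone. When the mean of the 3 injured groups was set against sham, 7 rose and 12 fell, beside 13.6% and 12.2% of all genes. The median log2 difference of the 38 genes was -0.21 in the injured kidneys, against -0.01 over all genes. In 16 ABC genes all 6 injured kidneys lay below both sham kidneys, and in 6 they all lay above (background over all genes, 17.7% and 17.9%). Abcc3 rose and Abca8a, Abcc6, Abcc9 and Abcg1 fell in both comparisons, and these 5 kept their calls with any 1 array left out and under every other processing tried. The remaining 5 calls in IRI and 14 in the injured kidneys were each lost in at least 1 of those fits. Without the filter on dim probes, which adds genes to the adjustment, 11 of the 19 calls in the injured kidneys were lost.

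**Figure D1:**
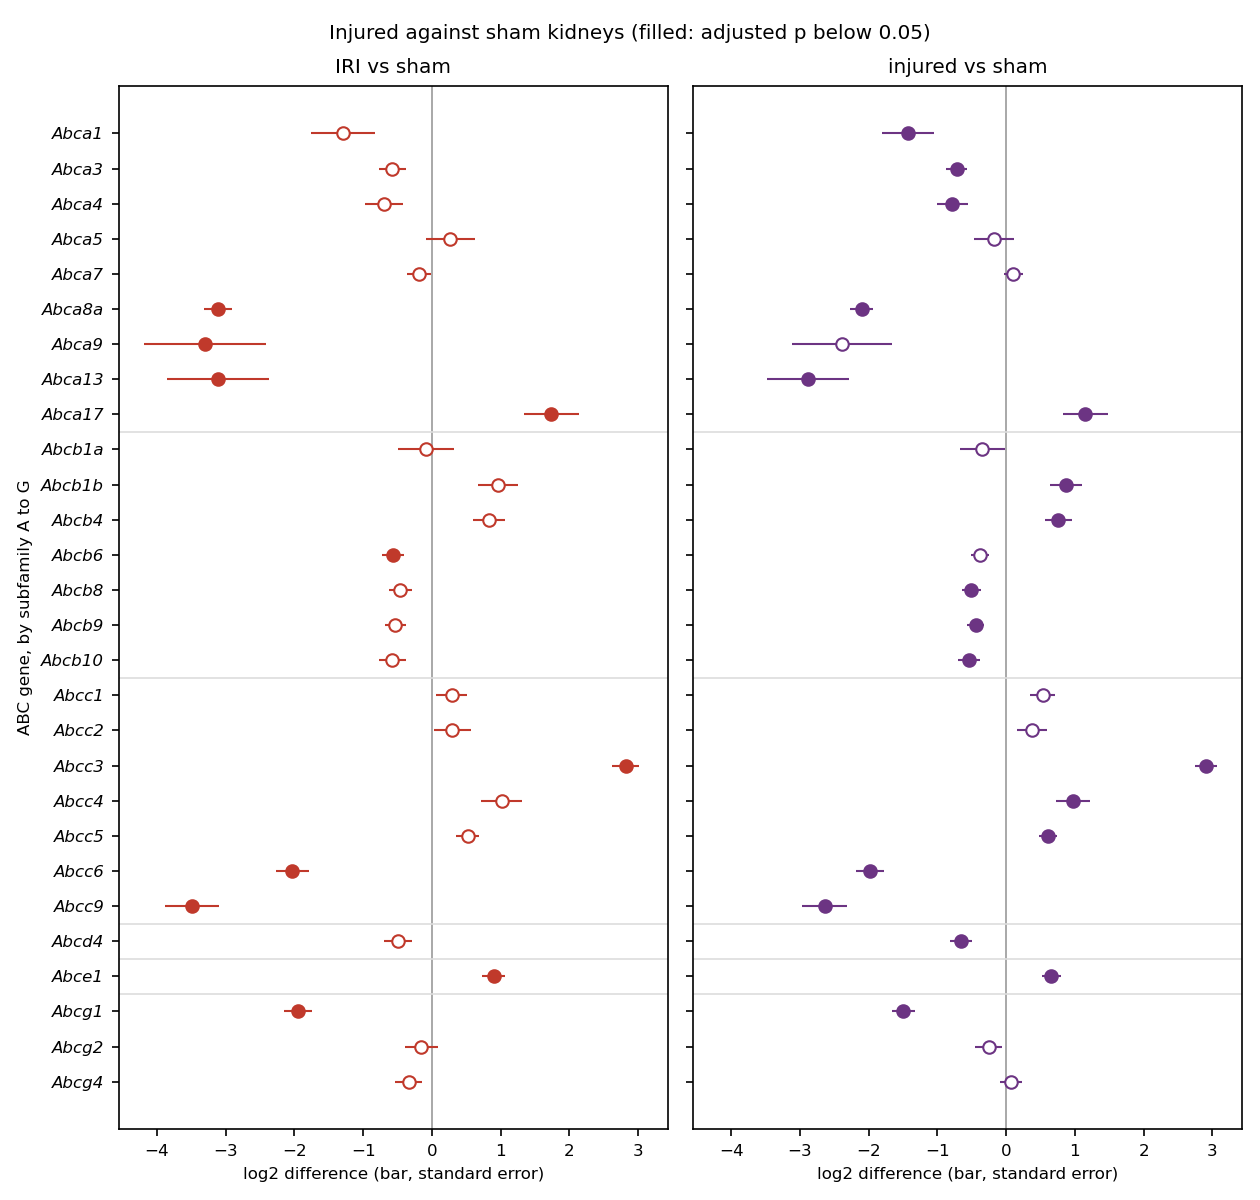
Log2 difference of 28 ABC genes (those that passed the test in any comparison, with Abcb1a, Abcc2 and Abcg2) in IRI against sham kidneys (left) and in the mean of the 3 injured groups against sham (right), with bars for the moderated standard error and filled points for adjusted p below 0.05. Abcc3 lies farthest to the right in both panels, at 2.82 and 2.91, and Abcc9 and Abca13 lie farthest to the left, at -3.49 and -2.88.

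The export of conjugated anions is a task of several members of subfamily C, and 3 genes of the subfamily rose in the injured kidneys. Abcc3 (MRP3) carries glucuronides and bile salts out of epithelial cells across the basolateral membrane. Its level was -2.27 and -2.23 in sham kidneys, 0.62 and 0.52 in IRI kidneys, 1.29 and 0.91 in mimic kidneys and 0.20 and 0.44 in control-miRNA kidneys. Every injured kidney lay above both sham kidneys, and the 2 mimic kidneys lay above the other 4 injured ones. Abcc3 rose 7.05-fold in IRI (log2 difference 2.82, SE 0.19, adjusted p = 0.000931) and 7.52-fold in the injured kidneys (2.91, SE 0.16, adjusted p = 0.000295). Its other probe, well above background on 6 of the 8 arrays, gave 1.79 and 2.46, and the normexp background correction gave 2.20 and 2.26.

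Abcc2 (MRP2), the apical counterpart that passes the same kind of conjugates into the urine, showed no such shift. It lay at 2.96 and 3.01 in sham kidneys, 3.51 and 3.05 in IRI kidneys, 3.58 and 2.88 in mimic kidneys and 3.64 and 3.51 in control-miRNA kidneys. Mimic mouse 7 lay below both sham kidneys and the other 5 injured kidneys above them. The difference in the injured kidneys was 0.38 (SE 0.22, adjusted p = 0.262), and Abcc2 passed the test in 0 of the 5 comparisons.

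Abcc4 (MRP4) exports cyclic nucleotides, prostaglandins and urate through the apical membrane. Its level was 0.70 and 1.35 in sham kidneys, 2.23 and 1.85 in IRI kidneys, 1.54 and 1.88 in mimic kidneys and 2.48 and 1.99 in control-miRNA kidneys. All injured kidneys lay above both sham kidneys, although sham mice 1 and 4 differed by more than mimic 6 and sham 4 did. It rose by 0.97 in the injured kidneys (SE 0.24, adjusted p = 0.0271). The call was lost without sham 1 (0.65, adjusted p = 0.237), sham 4, IRI 30 or control-miRNA 1.

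Abcc5 (MRP5), another exporter of cyclic nucleotides, lay at 0.49 and 0.44 in sham kidneys, 1.07 and 0.90 in IRI kidneys, 1.10 and 0.95 in mimic kidneys and 1.31 and 1.15 in control-miRNA kidneys, with no overlap between sham and injured. It rose by 0.61 in the injured kidneys (SE 0.13, adjusted p = 0.0172). Of its 5 other usable probes 2 gave the opposite sign, and the mean over its probes gave 0.29 (adjusted p = 0.217). The call was also lost without sham 1, sham 4 or IRI 30, with adjusted p up to 0.153.

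Abcc1 (MRP1), a basolateral exporter of glutathione conjugates, separated the mimic kidneys from the rest. Its level was 0.03 and -0.14 in sham kidneys, 0.30 and 0.17 in IRI kidneys, 1.22 and 1.00 in mimic kidneys and -0.18 and 0.36 in control-miRNA kidneys. Both mimic kidneys lay above the other 6. In IRI the difference from sham was 0.29 (SE 0.22, adjusted p = 0.395) and in the injured kidneys 0.53 (SE 0.18, adjusted p = 0.0722), neither of which passed the test.

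Abcc6, whose loss causes the mineralisation disorder pseudoxanthoma elasticum, is known from liver and from the proximal tubule. It lay at 0.01 and 0.37 in sham kidneys, -1.97 and -1.71 in IRI kidneys, -1.86 and -1.45 in mimic kidneys and -2.09 and -1.68 in control-miRNA kidneys. The 3 injured groups overlapped each other and none came near sham. Abcc6 fell 3.95-fold in the injured kidneys (-1.98, SE 0.20, adjusted p = 0.00125), and its other probe gave -1.34. The joint level of the 10 proximal tubule markers (log2 of the sum of their linear levels) moved the same way, from 10.67 to 10.75 in sham to 9.60 to 9.71 in IRI, 10.02 to 10.25 in mimic and 9.63 to 9.96 in control-miRNA kidneys. That joint level is carried in large part by Kap, which lay at 9.60 and 9.37 in sham and at 9.65 and 9.78 in mimic kidneys. The median difference of the 10 markers was -1.68 in IRI and -1.73 in the injured kidneys, where 8 of them fell. The part of these markers in the Abcc6 result was not tested.

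Abcc9 (SUR2) is no pump: it forms the regulatory subunit of the ATP-sensitive potassium channel whose pore in vascular smooth muscle and pericytes is Kcnj8 (Kir6.1). Abcc9 lay at 0.33 and 0.39 in sham kidneys, -3.49 and -2.77 in IRI kidneys, -1.81 and -0.93 in mimic kidneys and -2.71 and -1.97 in control-miRNA kidneys. All 6 injured kidneys were below sham, lowest in IRI and highest in the mimic kidneys. It fell by 3.49 in IRI (SE 0.39, adjusted p = 0.00288) and by 2.64 in the injured kidneys, which is 6.24-fold (SE 0.32, adjusted p = 0.00234). With normexp the differences were -2.52 and -1.95. Kcnj8 lay at 0.52 and 0.59 in sham kidneys, -2.04 and -1.41 in IRI kidneys, -1.41 and -0.89 in mimic kidneys and -1.58 and -0.79 in control-miRNA kidneys. It fell by 1.91 in the injured kidneys (SE 0.28, adjusted p = 0.00436). The genes of this channel were thus both low after injury, while the joint level of 5 smooth muscle and pericyte markers was higher in all 6 injured kidneys (4.71 to 6.86) than in sham (3.91 to 4.19), and 0 of those 5 markers fell. That joint level is carried by Acta2 and Tagln. Myh11 and Rgs5 went the other way, with differences in IRI of -0.55 (SE 0.22, adjusted p = 0.123) and -0.79 (SE 0.42, adjusted p = 0.233), and the median of the 5 was -0.29 in IRI and 0.51 in the injured kidneys. The joint level of 8 endothelial markers was 3.60 to 3.83 in sham, 3.09 to 3.21 in IRI, 3.85 to 4.14 in mimic and 2.88 to 3.11 in control-miRNA kidneys, and 2 of the 8 fell in IRI. Its part in the Abcc9 result was not tested. Abcc8, the pancreatic and neuronal sulfonylurea receptor, was well above background on 3 of 8 arrays and was not tested, nor was its pore Kcnj11.

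Abcc10 (MRP7) lay within 0.24 of sham as a mean of the injured kidneys and did not pass the test, and Abcc12 was not tested. Cftr, the chloride channel that belongs to subfamily C by sequence, rose by 1.51 in the injured kidneys (SE 0.15, adjusted p = 0.00126).

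A list of organic ion uptake and exchange in the proximal tubule held 14 tested carriers, not all of them on the uptake side. Of these 6 fell and 1 rose in IRI alone, and 11 fell and 1 rose in the injured kidneys. Among those that fell were Slc22a7 (OAT2; -4.26, SE 0.81, adjusted p = 0.0114) and Slco1a1 (-3.15, SE 0.32, adjusted p = 0.00125), and the carrier that rose was Slco4a1 (1.96, SE 0.31, adjusted p = 0.00594). Slco2b1 fell by 2.18 in IRI (SE 0.20, adjusted p = 0.00156). Among 6 scaffold genes that hold apical transporters in place, Pdzk1 fell by 1.25 (SE 0.13, adjusted p = 0.00156) and Msn rose by 1.69 (SE 0.14, adjusted p = 0.000642) in the injured kidneys.

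**Figure D2:**
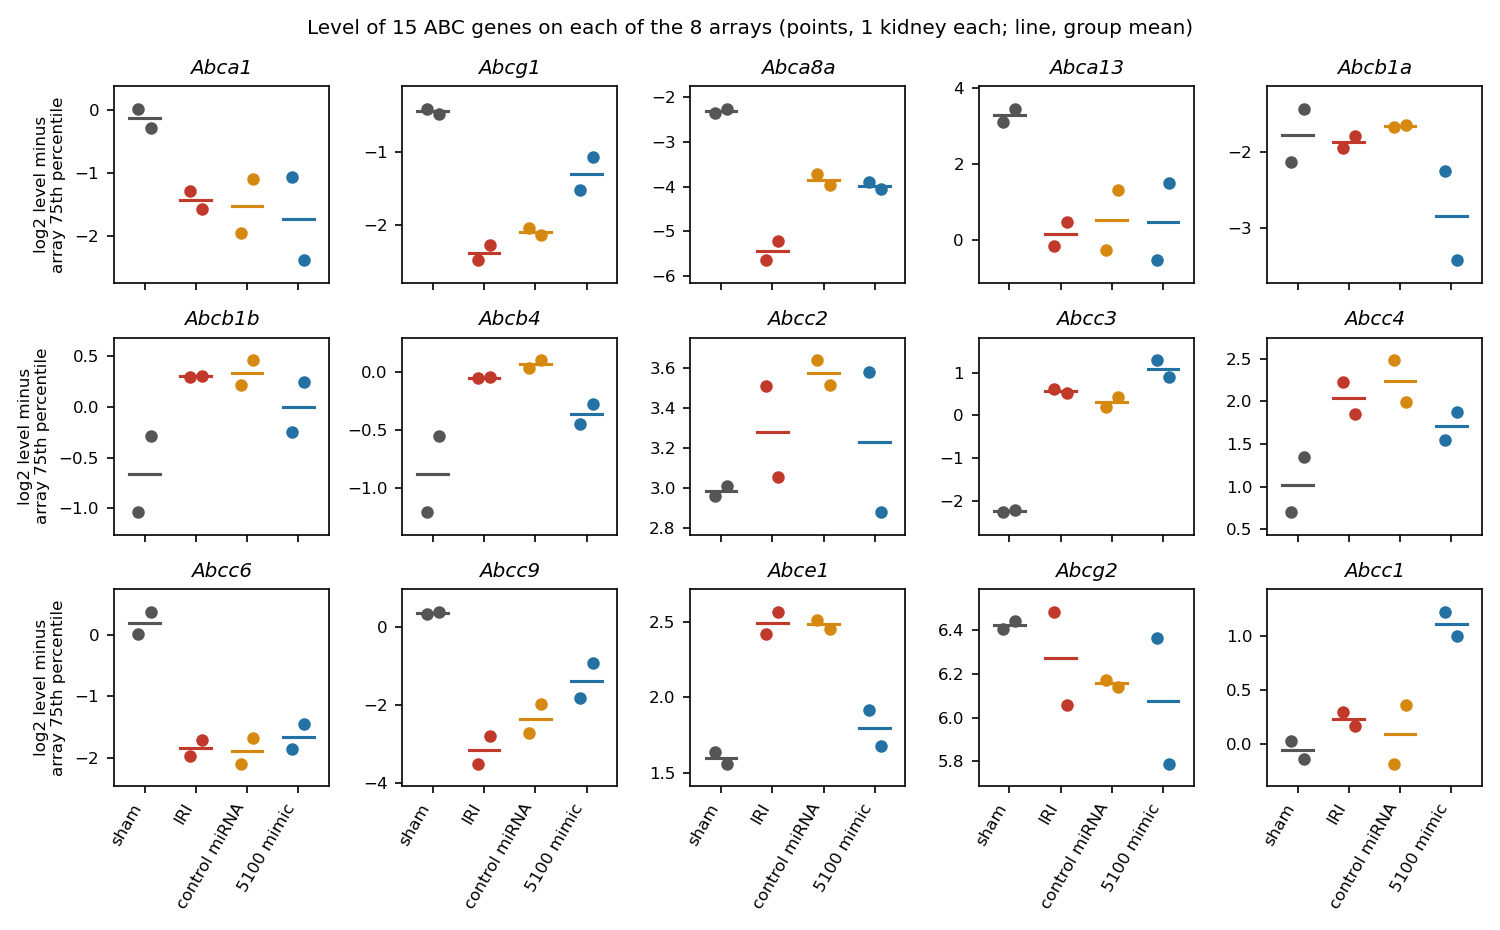
Log2 level minus the array's 75th percentile of 15 ABC genes (1 panel each, with its own vertical scale), for the 2 kidneys of each group (points) and their mean (line). Abcc3 rises from -2.27 and -2.23 in sham to above 0 in all 6 injured kidneys, Abca8a, Abcc6, Abcc9 and Abcg1 fall in all 6, and Abcb1a, Abcc2 and Abcg2 show no separation of sham from injured kidneys.

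Abcg2 (BCRP) exports urate and many drugs at the apical membrane. It lay at 6.41 and 6.44 in sham kidneys, 6.48 and 6.06 in IRI kidneys, 6.37 and 5.79 in mimic kidneys and 6.17 and 6.14 in control-miRNA kidneys. IRI 30 lay above both sham kidneys and the other 5 injured kidneys below. The difference in the injured kidneys was -0.26 (SE 0.20, adjusted p = 0.393), and Abcg2 passed the test in 0 of the 5 comparisons.

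The P-glycoproteins, which pump lipophilic drugs and toxins into the urine, are encoded in the mouse by Abcb1a and Abcb1b, next to Abcb4 on chromosome 5. Abcb4 moves phosphatidylcholine to the outer face of the membrane and is best known from bile formation. By the gene order of a RefSeq table, Abcb1b and Abcb4 are direct neighbours and 2 long non-coding RNA genes lie between them and Abcb1a. Abcb1b lay at -1.04 and -0.29 in sham kidneys, 0.29 and 0.30 in IRI kidneys, -0.25 and 0.24 in mimic kidneys and 0.21 and 0.45 in control-miRNA kidneys. All injured kidneys were above both sham kidneys, with mimic 6 only just above sham 4. It rose by 0.87 in the injured kidneys (SE 0.24, adjusted p = 0.0360), and the mean over its probes gave 0.59 (adjusted p = 0.0675).

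Abcb4 followed the same order, at -1.20 and -0.55 in sham kidneys, -0.06 and -0.04 in IRI kidneys, -0.45 and -0.28 in mimic kidneys and 0.03 and 0.10 in control-miRNA kidneys. It rose by 0.76 in the injured kidneys (SE 0.19, adjusted p = 0.0276), and its other probes were not well above background on any array. Both calls rest on sham mouse 1, without which Abcb1b gave 0.50 (adjusted p = 0.295) and Abcb4 0.43 (adjusted p = 0.244), and both were also lost without either IRI or either control-miRNA mouse. Abcb1a lay at -2.13 and -1.42 in sham kidneys, -1.94 and -1.78 in IRI kidneys, -2.25 and -3.44 in mimic kidneys and -1.67 and -1.63 in control-miRNA kidneys. The IRI and control-miRNA kidneys lay between the sham kidneys and both mimic kidneys below them. Its difference in the injured kidneys was -0.35 (SE 0.33, adjusted p = 0.494). The 60-base probes of Abcb1a and Abcb1b match at no more than 21 positions in any ungapped overlap, and those of Abcb1b and Abcb4 at no more than 19.

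The 250 bases before the RefSeq start of the 3 neighbours are shown because the adjacent pair moved together and the more distant gene did not. All lie on the plus strand of GRCm38.p6, at chr5:8566841-8567090 for Abcb1a, chr5:8797897-8798146 for Abcb1b and chr5:8893471-8893720 for Abcb4. Capitals mark matches on either strand to 5 motifs, none of which contains another: the GC box GGGCGG, the CCAAT box, the TATA box as TATAAA, the E-box CACGTG, and the antioxidant response element as TGACNNNGC.
Abcb1a: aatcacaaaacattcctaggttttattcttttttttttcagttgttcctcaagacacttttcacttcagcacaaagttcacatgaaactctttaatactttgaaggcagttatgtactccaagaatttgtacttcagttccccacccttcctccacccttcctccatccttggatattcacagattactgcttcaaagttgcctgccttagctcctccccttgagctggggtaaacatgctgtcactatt
Abcb1b: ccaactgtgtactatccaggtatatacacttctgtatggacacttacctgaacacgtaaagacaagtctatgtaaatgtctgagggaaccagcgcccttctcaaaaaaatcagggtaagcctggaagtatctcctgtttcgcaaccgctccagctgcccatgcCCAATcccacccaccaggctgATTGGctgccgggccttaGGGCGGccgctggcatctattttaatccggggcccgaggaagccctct
Abcb4: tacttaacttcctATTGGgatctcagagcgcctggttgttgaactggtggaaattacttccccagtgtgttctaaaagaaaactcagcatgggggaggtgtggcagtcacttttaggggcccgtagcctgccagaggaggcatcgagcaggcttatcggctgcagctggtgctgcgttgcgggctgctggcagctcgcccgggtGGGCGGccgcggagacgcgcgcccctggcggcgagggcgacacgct
The Abcb1b and Abcb4 windows each hold GGGCGG once, and CCAAT occurs in 2 places before Abcb1b and 1 before Abcb4, while the Abcb1a window holds none of the 5. Windows of the same length hold GGGCGG in 32.7%, CCAAT in 33.8%, TATAAA in 12.4%, CACGTG in 6.02% and TGACNNNGC in 10.2% of 32851 promoters in the table, which has an entry for 38 of the 50 ABC genes. These matches describe letters only.

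**Figure D3:**
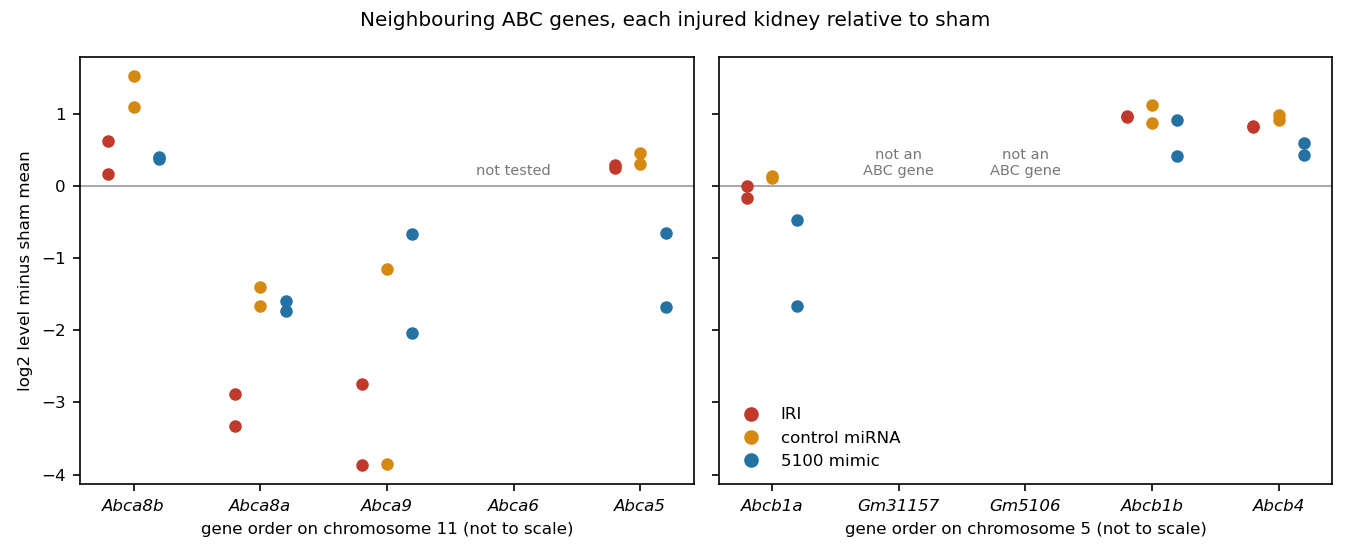
Log2 level of each injured kidney minus the mean of the 2 sham kidneys, for neighbouring ABC genes in their order on chromosome 11 (left) and chromosome 5 (right), with 2 points per group. Abcb1b and Abcb4 lie above 0 in all 6 injured kidneys and Abcb1a does not, while Abca8a and Abca9 lie below 0 beside Abca8b, which lies above it.

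The other members of subfamily B mostly work in mitochondria and lysosomes, and those that passed the test fell by small amounts. In the injured kidneys Abcb8, an inner membrane transporter, fell by 0.50 (SE 0.14, adjusted p = 0.0377), and Abcb10, which supports haem synthesis, fell by 0.54 (SE 0.16, adjusted p = 0.0465). Abcb9, a lysosomal peptide transporter, fell by 0.44 (SE 0.12, adjusted p = 0.0388). In each of these 3 genes all 6 injured kidneys lay below both sham kidneys, and each call was lost without any 1 of the sham, IRI or control-miRNA mice (adjusted p 0.0548 to 0.274). Abcb6, a porphyrin transporter, fell in IRI alone, by 0.57 (SE 0.16, adjusted p = 0.0486), and lost that call without any 1 of the same 6 mice. Of 17 mitochondrial iron-sulfur and haem genes 4 fell and 1 rose. The gene that rose was Alas1, the first enzyme of haem synthesis (0.93, SE 0.17, adjusted p = 0.0102), and the largest fall was that of Nfs1, the sulfur donor of cluster assembly (-0.94, SE 0.17, adjusted p = 0.00889). Tap2, a peptide transporter of antigen presentation and a member of subfamily B by sequence, rose by 0.66 (SE 0.19, adjusted p = 0.0450). Tap1 did not pass the test in the injured kidneys. It lay at -0.43 and -0.54 in sham kidneys, 0.05 and 0.28 in IRI kidneys, 0.10 and -0.51 in mimic kidneys and 0.02 and 0.55 in control-miRNA kidneys. Its level in mimic 7 lay between the sham kidneys.

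Cellular cholesterol export is shared by Abca1, which loads phospholipid and cholesterol onto lipid-poor apolipoprotein, and Abcg1, which adds cholesterol to mature HDL. Abca1 lay at 0.03 and -0.27 in sham kidneys, -1.29 and -1.56 in IRI kidneys, -1.06 and -2.39 in mimic kidneys and -1.95 and -1.09 in control-miRNA kidneys. All 6 injured kidneys were below both sham kidneys, and the 3 injured groups overlapped. It fell 2.70-fold in the injured kidneys (-1.43, SE 0.38, adjusted p = 0.0340). In IRI against sham the difference was -1.30 (SE 0.47, adjusted p = 0.100). The call in the injured kidneys was lost without sham 1 (-1.28, adjusted p = 0.211), sham 4, either IRI mouse or control-miRNA 1.

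Abcg1 lay at -0.40 and -0.47 in sham kidneys, -2.50 and -2.27 in IRI kidneys, -1.53 and -1.06 in mimic kidneys and -2.05 and -2.14 in control-miRNA kidneys. All injured kidneys were below sham, and the mimic kidneys lay between sham and the other 4. It fell 2.81-fold in the injured kidneys (-1.49, SE 0.17, adjusted p = 0.00171) and by 1.95 in IRI (SE 0.20, adjusted p = 0.00222). The joint level of 8 macrophage markers, from a cell type that uses both transporters, was 5.23 to 5.68 in sham, 4.28 to 4.29 in IRI, 5.55 to 6.23 in mimic and 4.62 to 4.84 in control-miRNA kidneys. That joint level is carried largely by Itgam, Csf1r and Lyz2. Cd68 went the other way, from -0.68 and -1.15 in sham to 1.68 and 1.88 in IRI kidneys, and the median of the 8 in IRI was -0.67. In IRI 3 of the 8 fell and 1 rose, and in mimic against IRI 4 rose. Their part in the Abcg1 result was not tested.

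Both genes are targets of the nuclear receptors LXR and RXR. Of 18 regulators of ABC genes Rxra, which encodes the RXR partner, fell by 0.60 in the injured kidneys (SE 0.13, adjusted p = 0.0157). The LXR genes did not pass the test, with differences of -0.38 for Nr1h3 (SE 0.19, adjusted p = 0.193) and -0.06 for Nr1h2 (SE 0.19, adjusted p = 0.837). Nr1i2 (PXR), a drug sensor that drives Abcb1 genes and Abcc2, rose by 0.61 (SE 0.16, adjusted p = 0.0355). Among 15 tested genes of cholesterol and HDL handling 4 fell and 2 rose. Smpdl3a fell by 2.04 (SE 0.27, adjusted p = 0.00335) and Cyp27a1, a sterol hydroxylase, by 1.17 (SE 0.20, adjusted p = 0.00758). Cyp27a1 was well above background on only 6 arrays. The HDL receptor Scarb1 rose by 1.02 (SE 0.18, adjusted p = 0.00828) and Ch25h, another sterol hydroxylase, by 1.82 (SE 0.31, adjusted p = 0.00750).

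Of the other lipid transporters of subfamily A, Abca3, which packs surfactant lipid into lamellar bodies of the lung, lay at 6.44 and 6.46 in sham kidneys, 5.92 and 5.83 in IRI kidneys, 5.74 and 5.31 in mimic kidneys and 5.69 and 5.89 in control-miRNA kidneys. There was no overlap of sham with injured. It fell by 0.72 in the injured kidneys (SE 0.16, adjusted p = 0.0178), and the call was lost without sham 1 or sham 4 (adjusted p up to 0.138) and with the mean over its probes (-0.47, adjusted p = 0.0787). Abca4, the retinoid transporter of photoreceptors, fell by 0.78 (SE 0.23, adjusted p = 0.0452), and that call was lost without any 1 of the sham, IRI or control-miRNA mice (adjusted p up to 0.327, at -0.54 without sham 4). Abca2 differed by -0.56 (SE 0.17, adjusted p = 0.0568), with all 6 injured kidneys below sham.

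Abca13, one of the longest genes of the family, lay at 3.10 and 3.44 in sham kidneys, -0.16 and 0.48 in IRI kidneys, -0.53 and 1.51 in mimic kidneys and -0.26 and 1.32 in control-miRNA kidneys. All injured kidneys were below sham, and the mice within the mimic and control-miRNA groups stood far apart. It fell 7.37-fold in the injured kidneys (-2.88, SE 0.60, adjusted p = 0.0152) and by 3.11 in IRI (SE 0.74, adjusted p = 0.0315). Its other probe gave -2.84 and -3.69 but was well above background on only 2 arrays. Those differences are set mostly against background values, so their size is no support. The call in the injured kidneys was lost without sham 1 or sham 4 (adjusted p up to 0.120), and that in IRI also without either IRI mouse (up to 0.148).

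Abca17 rose in IRI by 1.73 (SE 0.40, adjusted p = 0.0295). It lay at -3.27 and -3.37 in sham kidneys, -1.57 and -1.59 in IRI kidneys, -2.35 and -3.67 in mimic kidneys and -1.70 and -2.11 in control-miRNA kidneys. Mimic 7 lay below both sham kidneys, on an array where the gene was not well above background, and the other 5 injured kidneys lay above them. In the injured kidneys together it rose by 1.15 (SE 0.33, adjusted p = 0.0425). With normexp the difference in IRI was 0.84. The call in IRI was lost without either sham or either IRI mouse (adjusted p up to 0.137), and that in the injured kidneys also without either control-miRNA mouse (up to 0.221).

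On chromosome 11 the genes Abca8b, Abca8a, Abca9, Abca6 and Abca5 follow each other directly, a cluster of lipid transporters of subfamily A. Abca8a lay at -2.36 and -2.27 in sham kidneys, -5.64 and -5.20 in IRI kidneys, -3.91 and -4.05 in mimic kidneys and -3.72 and -3.97 in control-miRNA kidneys. All injured kidneys were below sham. Abca8a was not well above background on any IRI or mimic array. Taking the lowest signal well above background on each IRI array in place of its own lower value, it was at least 6.51-fold lower in IRI than in sham with the main processing. The limma test, made on its own values, gave adjusted p = 0.000891. In the injured kidneys it fell by 2.10 (SE 0.17, adjusted p = 0.000627). Its other probe gave -2.04 but was well above background on only 3 of the 8 arrays. That difference is set mostly against background values, so its size is no support. With the normexp background correction the differences were -1.11 in IRI (adjusted p = 0.00161) and -0.67 in the injured kidneys (adjusted p = 0.00460), so the call held and the size did not.

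Abca9, the next gene, lay at -2.83 and -2.63 in sham kidneys, -6.59 and -5.47 in IRI kidneys, -4.77 and -3.39 in mimic kidneys and -3.88 and -6.58 in control-miRNA kidneys. All injured kidneys were below sham, with a wide spread among them, and on both IRI arrays it was not well above background. It was at least 4.89-fold lower in IRI. Since it passed the background filter only in sham, where it was high, its call there (adjusted p = 0.0451, lost without either sham or either IRI mouse, up to 0.194) is a description and no support. With normexp the difference was -0.97. In the injured kidneys the difference was -2.39 (SE 0.72, adjusted p = 0.0518). Abca8b, on the other side of Abca8a, lay at -4.00 and -3.46 in sham kidneys, -3.11 and -3.57 in IRI kidneys, -3.34 and -3.36 in mimic kidneys and -2.22 and -2.64 in control-miRNA kidneys. Only IRI 34 among the injured kidneys lay below a sham kidney. The difference in the injured kidneys was 0.69 (SE 0.22, adjusted p = 0.0569), and 1 of its 2 other probes gave -0.74. The probes of Abca8a and Abca8b match at no more than 25 of 60 positions. Abca6 stayed within background on all 8 arrays.

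The 250 bases before the starts of 3 genes of the cluster are shown for the contrast between Abca8a with Abca9 and Abca8b. They lie on the minus strand of GRCm38.p6, at chr11:109995846-109996095 for Abca8b, chr11:110095938-110096187 for Abca8a and chr11:110168154-110168403 for Abca9, and capitals mark the same 5 motifs.
Abca8b: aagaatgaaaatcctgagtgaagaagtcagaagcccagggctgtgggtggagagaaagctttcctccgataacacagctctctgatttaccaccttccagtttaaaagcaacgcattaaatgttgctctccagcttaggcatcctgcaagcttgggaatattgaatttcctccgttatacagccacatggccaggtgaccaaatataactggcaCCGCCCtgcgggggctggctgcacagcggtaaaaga
Abca8a: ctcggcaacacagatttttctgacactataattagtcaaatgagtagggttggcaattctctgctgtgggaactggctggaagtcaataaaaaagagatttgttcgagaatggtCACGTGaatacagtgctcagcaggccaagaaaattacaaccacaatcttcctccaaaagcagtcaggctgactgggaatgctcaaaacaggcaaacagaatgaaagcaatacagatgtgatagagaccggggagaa
Abca9: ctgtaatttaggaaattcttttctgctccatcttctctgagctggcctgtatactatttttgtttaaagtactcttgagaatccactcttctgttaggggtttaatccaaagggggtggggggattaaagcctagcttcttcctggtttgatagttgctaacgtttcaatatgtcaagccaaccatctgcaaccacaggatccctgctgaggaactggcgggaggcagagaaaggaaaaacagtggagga
The Abca8b window holds GGGCGG on the reverse strand, the Abca8a window holds CACGTG, and the Abca9 window holds none of the 5 motifs.

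Abca5, the last gene of the cluster and a lysosomal protein, stayed near sham in the IRI and control-miRNA kidneys. It lay at -1.88 and -1.26 in sham kidneys, -1.28 and -1.33 in IRI kidneys, -2.23 and -3.25 in mimic kidneys and -1.12 and -1.26 in control-miRNA kidneys. Both mimic kidneys lay below all others. Abca7, a relative of Abca1 with a part in phagocytosis, lay at 1.74 and 1.69 in sham kidneys, 1.61 and 1.43 in IRI kidneys, 2.23 and 2.31 in mimic kidneys and 1.54 and 1.79 in control-miRNA kidneys. Both mimic kidneys lay above all others. Neither gene passed the test in the injured kidneys (-0.17, SE 0.29, adjusted p = 0.709 for Abca5; 0.11, SE 0.14, adjusted p = 0.621 for Abca7).

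In subfamily D, which carries fatty acids into peroxisomes and cobalamin out of lysosomes, Abcd4, the lysosomal cobalamin transporter, fell by 0.66 in the injured kidneys (SE 0.17, adjusted p = 0.0286). The call was lost without either sham mouse (adjusted p up to 0.247), either IRI mouse or control-miRNA 5. The peroxisomal Abcd3 did not pass the test, with a difference of -0.20 (SE 0.31, adjusted p = 0.676). Of 12 peroxisomal and cobalamin partners 2 fell, Slc27a2 by 1.38 (SE 0.22, adjusted p = 0.00572) and the thiolase Acaa1a by 0.89 (SE 0.13, adjusted p = 0.00492).

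Abce1, which separates the ribosomal subunits after translation ends, lay at 1.64 and 1.56 in sham kidneys, 2.42 and 2.57 in IRI kidneys, 1.91 and 1.68 in mimic kidneys and 2.52 and 2.45 in control-miRNA kidneys. The IRI and control-miRNA kidneys lay well above sham, and the mimic kidneys only slightly above it. It rose by 0.90 in IRI (SE 0.16, adjusted p = 0.0142) and by 0.66 in the injured kidneys (SE 0.13, adjusted p = 0.0139). The first call was lost without either sham or either IRI mouse (adjusted p up to 0.105), the second without either sham mouse (up to 0.139) and with the mean over its probes (0.46, adjusted p = 0.114). Of 8 genes of translation that work with subfamilies E and F 3 rose in IRI and 2 in the injured kidneys, among them the initiation factor subunits Eif2s1 (0.63, SE 0.16, adjusted p = 0.0322) and Eif2s2 (0.77, SE 0.15, adjusted p = 0.0129). The 3 members of subfamily F, which act on translation, passed the test in 0 of the 5 comparisons and lay between -0.06 and 0.10 in the injured kidneys.

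The sterol transporters Abcg4 and Abcg8 did not pass the test against sham. Abcg4, a relative of Abcg1 best known from brain, lay at -0.68 and -0.89 in sham kidneys, -0.96 and -1.28 in IRI kidneys, -0.15 and 0.09 in mimic kidneys and -1.07 and -0.91 in control-miRNA kidneys. Both mimic kidneys lay above all others. The other probe of Abcg4 was well above background on only 1 of the 8 arrays. Abcg8 differed by -0.18 in the injured kidneys (SE 0.18, adjusted p = 0.510), while its partner Abcg5 stayed within background on all 8 arrays.

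The 12 genes that were not tested were Abca6, Abca12, Abca14, Abca15, Abca16, Abcb5, Abcb11, Abcc8, Abcc12, Abcd2, Abcg3 and Abcg5. Abcb11, the bile salt export pump of hepatocytes, lay at -6.50 and -6.89 in sham kidneys, -6.71 and -7.17 in IRI kidneys, -6.20 and -5.89 in mimic kidneys and -5.75 and -6.65 in control-miRNA kidneys, none of them well above background, so these values have no order. In 10 of the 12 no probe was above background on any array, Abcc12 was above on 1 array with another probe, and Abcc8 on 3.

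**Figure D4:**
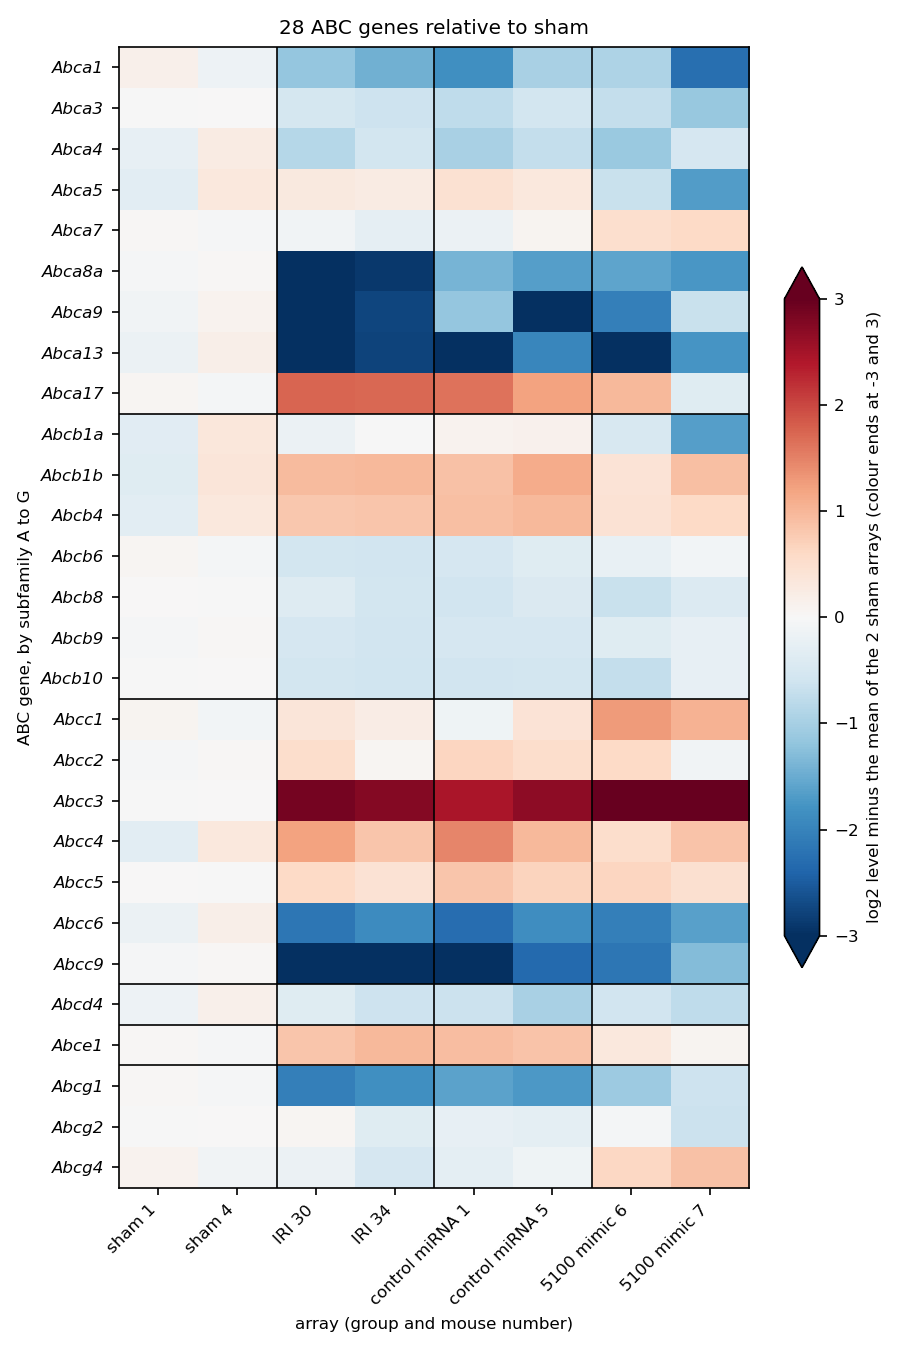
Log2 level of the same 28 ABC genes (subfamilies separated by lines, none of them from subfamily F) on each array minus the mean of the 2 sham arrays, red above and blue below sham, with the colour ending at -3 and 3. Abcc3 is red in all 6 injured kidneys and Abca13, Abcc6, Abcc9 and Abcg1 are blue in all 6, while Abca7, Abcc1 and Abcg4 are redder in the mimic kidneys than in the other injured ones.

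Between the injured groups the ABC genes were compared 3 times. In 5100 mimic against control-miRNA kidneys, the comparison that isolates the injected sequence, limma called 0 of 38 ABC genes higher and 0 lower, beside 0% and 0% of all genes, and 12 of the 38 had an unadjusted p below 0.05, as had 7188 of all 21264 genes. The smallest adjusted p of any gene on the array was 0.0662. The mimic kidneys lay wholly above the control-miRNA kidneys in 9 ABC genes and wholly below in 11, beside 33.1% and 26.1% of all genes. The differences of Abcc1 (1.02, SE 0.22), Abcg4 (0.96, SE 0.19), Abce1 (-0.69, SE 0.16) and Abca5 (-1.55, SE 0.36) each had that adjusted p of 0.0662 and did not pass the test. Abcc3 differed by 0.78 (SE 0.19, adjusted p = 0.0676) and Abcg1 by 0.80 (SE 0.20, adjusted p = 0.0684). With another background correction (normexp) 7 ABC genes rose and 2 fell in this comparison, beside 3908 and 1925 of the 21264 genes. Without mimic 6 the counts were 4 and 6, beside 3244 and 3074 of all genes.

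In 5100 mimic against IRI kidneys limma called 6 ABC genes higher and 2 lower, beside 10.5% and 5.53% of all genes. One of the 6, Abca8a, lay within background in all 4 kidneys of these groups, so no difference is given for it. The other 5 were Abcc9 (1.76, SE 0.39, adjusted p = 0.0393), Abcg4 (1.09, SE 0.19, adjusted p = 0.0387), Abcg1 (1.09, SE 0.20, adjusted p = 0.0387), Abcc1 (0.88, SE 0.22, adjusted p = 0.0460) and Abca7 (0.74, SE 0.17, adjusted p = 0.0395). The 2 that fell were Abca5 (-1.44, SE 0.36, adjusted p = 0.0446) and Abce1 (-0.70, SE 0.16, adjusted p = 0.0416). Abcc9 and Abcg1 had their lowest group mean in IRI, and in the mimic kidneys they lay between IRI and sham, whereas Abcc1, Abcg4 and Abca7 lay above sham as well. None of the 8 calls held in a fit on the 4 compared arrays alone (adjusted p 0.106 to 0.127) or with array brightness as a covariate (1.00 for each), settings under which limma called 0 of all 21264 genes, and each was lost without any 1 sham, IRI or control-miRNA mouse or without mimic 7. Without mimic 6 the call of Abcc1 was lost (adjusted p = 0.0682), and without mimic 7 the difference of Abca5 was -0.93 (adjusted p = 0.119). A further probe gave the opposite sign in 3 of the 8 genes, among them Abca8a. It gave 0.57 for Abca5 and -0.68 for Abca7, whose means over probes were -0.45 (adjusted p = 0.225) and 0.03 (adjusted p = 0.924). With normexp the difference of Abca5 was -0.56.

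The mimic arrays were also the dimmest, and 5 of 8 endothelial, 2 of 5 smooth muscle and pericyte and 4 of 8 macrophage markers rose in mimic against IRI. The part of brightness and of these cell types in the 8 differences was not tested. Nfe2l2 (NRF2), a regulator known to drive Abcc1, Abcc2, Abcc3 and Abcc4, lay at 1.94 and 2.36 in sham kidneys, 3.24 and 3.50 in IRI kidneys, 2.42 and 1.37 in mimic kidneys and 3.49 and 2.96 in control-miRNA kidneys. The mimic kidneys lay below the other injured ones, and Nfe2l2 fell by 1.47 against IRI (SE 0.37, adjusted p = 0.0461). In the same comparison Abcc1 rose and Abcc3 differed by 0.53 (SE 0.19, adjusted p = 0.0905). These are RNA levels only, and the part of Nfe2l2 in the levels of the ABC genes was not tested.

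**Figure D5:**
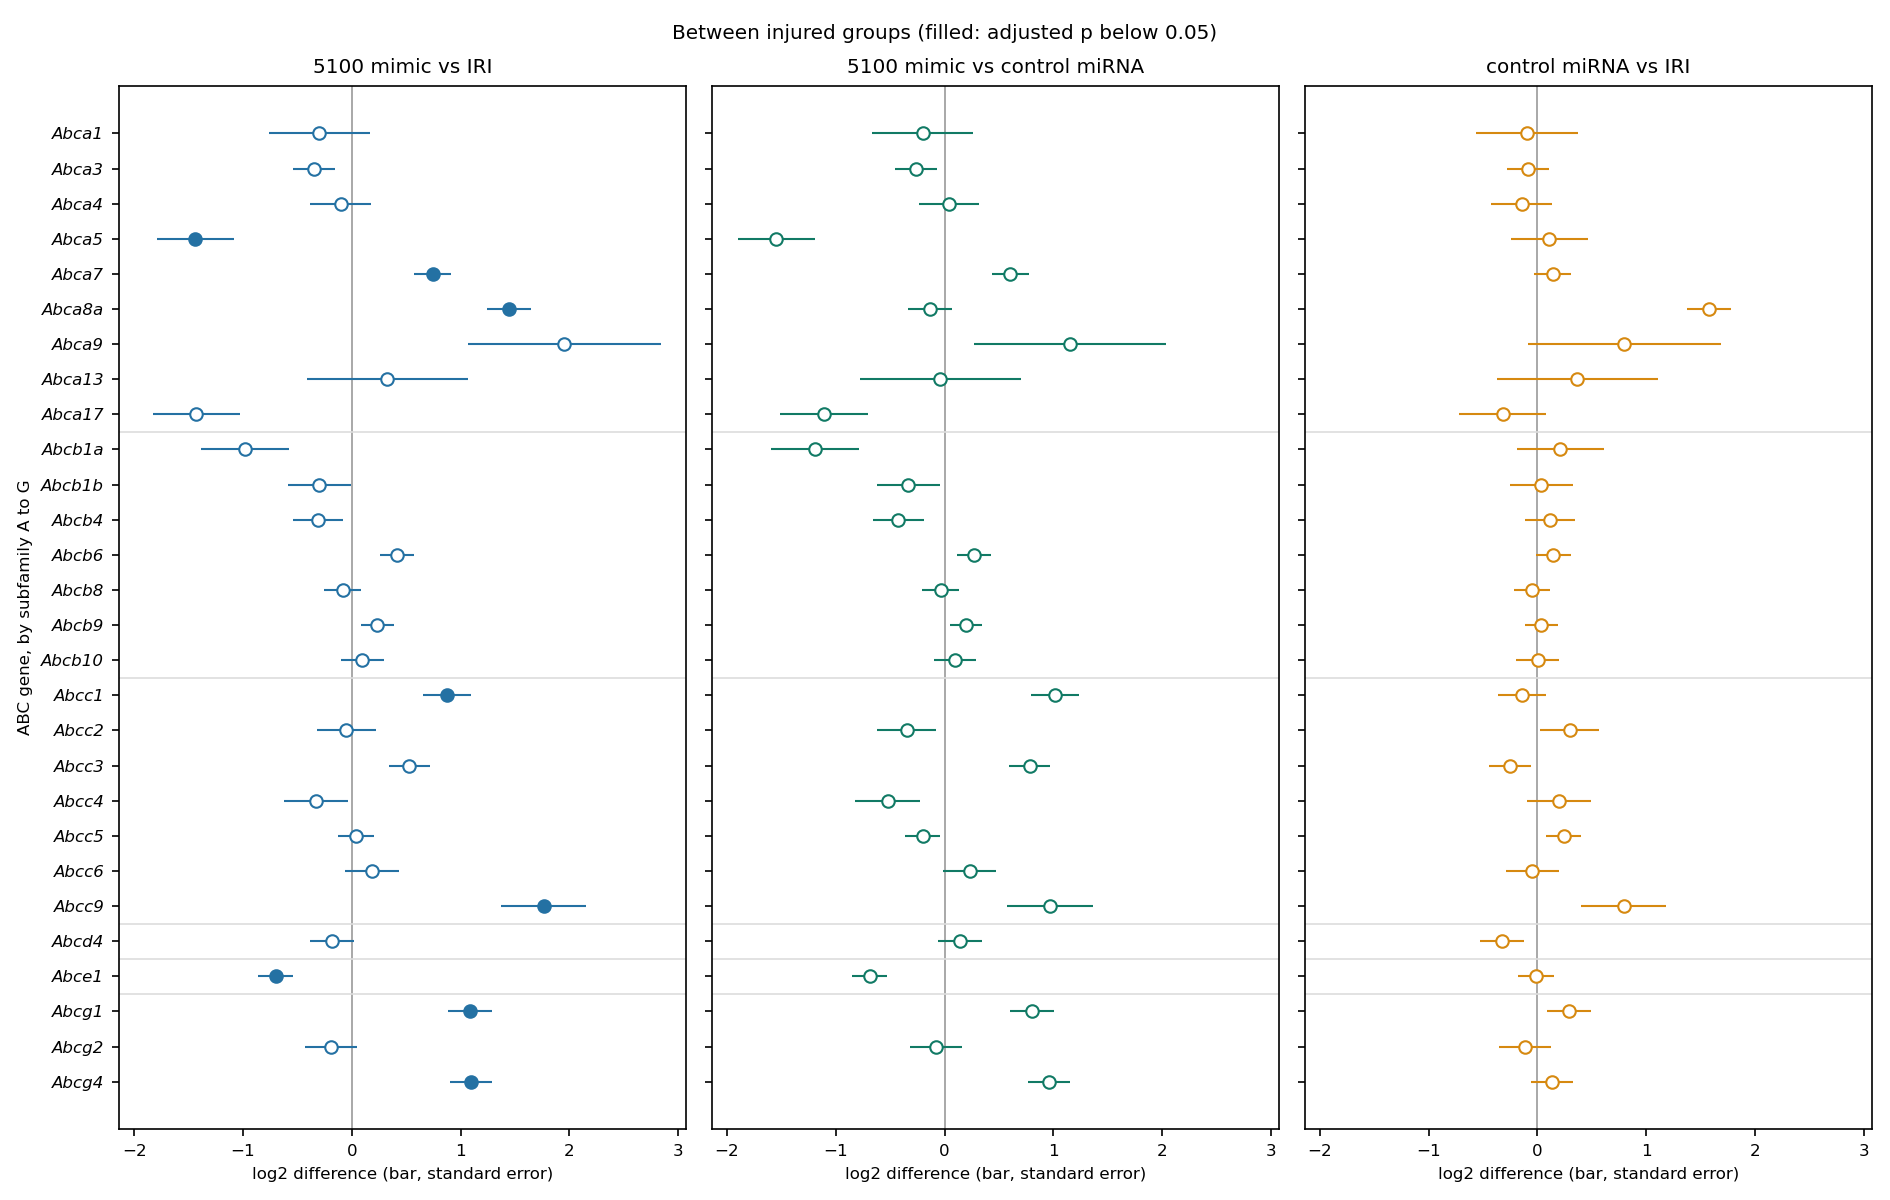
Log2 difference of the same 28 ABC genes in 5100 mimic against IRI (left), 5100 mimic against control-miRNA (middle) and control-miRNA against IRI kidneys (right), with bars for the moderated standard error and filled points for adjusted p below 0.05. The 8 filled points, among them Abca8a at background in both groups, all lie in the left panel, from -1.44 for Abca5 to 1.76 for Abcc9. The panels share groups of kidneys.

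In control-miRNA against IRI kidneys, which share the injury and differ in the injection, limma called 0 ABC genes higher and 0 lower, beside 0% and 0% of all genes, and 2 of the 38 had an unadjusted p below 0.05, as had 870 of all genes. Abca8a did not pass the test (adjusted p = 0.305). It was at least 2.25-fold higher in the control-miRNA kidneys, where it lay at -3.72 and -3.97 and was well above background. The median difference over the 38 genes was 0.03.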

How the data were processed

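One-colour arrays of 8 mouse kidneys were used. Per the file headers and the submitters' processing notes, the array images were read by Agilent Feature Extraction 12.0.3.1. Its processed signal, the intensity used here, had background and spatial trend removed on each array, with no scaling between arrays. The deposited series table holds a ratio per probe to its median over the arrays, from its values, and served only as an alternative. From the deposited intensity, control spots and outlier spots were left out (79 to 127 per array), 0 spots were saturated, and log2 values were centred on each array's 75th percentile. Probes well above background on both arrays of a group were kept (32218). The probe with the highest mean stood for its gene, and no gene's level was set against another's. Flags for spot quality are 0 or 1, and the raw mean and background intensity served the normexp alternative (offset 50), per the file headers.

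limma 3.58.1 in R 4.3.3 was fitted to all 8 arrays with a mean per group (6.84 degrees of freedom after moderation), adjusted by Benjamini-Hochberg over 21264 genes, with 5 comparisons. P-values measure the spread between mice of this single slide and scan, and the number of arrays limits the precision. The ABC genes, the gene lists and the named genes were chosen with earlier results of these data known. Values on each array are given for the 16 called members with the smallest p and 13 chosen by name (22 in all), and for Abca8b and Abca9, added as neighbours after their values were seen. A fold "at least" compares group means where a dim array counts at its lowest signal well above background, or at its own value if that is greater. Probe positions in the files are mm9 and were not used here. On simulated data for IRI against sham (200 changed genes among 21263) limma recovered 17.9% of those changed by 1 on the log2 scale, 67.2% of those changed by 2 and 77.3% of those changed by 3, and 2.7% of calls were false. Some tested members are counted but not reported singly here. Alternatives are in the closing section.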

Additional observations from a re-analysis of the deposited data

Results flagged for a closer look

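The effect of the injury relative to sham differed between the 5100 mimic and IRI groups in 8 ABC genes by the test of that difference itself (limma, adjusted p below 0.05). The log2 difference, mimic minus IRI, was 1.76 for Abcc9, 1.44 for Abca8a, 1.09 for Abcg1, 1.09 for Abcg4, 0.88 for Abcc1 and 0.74 for Abca7. It was -1.44 for Abca5 and -0.70 for Abce1. For Abca8a the difference is set between background values, since it was not well above background on any mimic or IRI array. Its other probe gave -0.09. Both mimic kidneys lay on the stated side of both IRI kidneys in all 8. Over all genes tested, the mimic kidneys lay wholly above the IRI kidneys in 38.3% and wholly below in 29%. The 8 were picked by their calls in this same comparison, so the lack of overlap is no further support. The injected mice share a slide row, so the injection cannot be told apart from it, and the same 8 genes did not pass the test against the control-miRNA kidneys.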

How the results depend on the processing

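Of 10 calls in IRI against sham 5 held with each array left out and under each of the other settings tried, of 19 in the injured kidneys 5, and of 8 in mimic against IRI 0. No called difference changed sign. In IRI against sham the ABC genes that rose numbered 6 with normexp, 5 with only the compared arrays and 1 to 6 with an array left out, and those that fell numbered 4 with brightness as a covariate, 11 with only the compared arrays and 4 to 11 with an array left out. In the injured kidneys those that rose numbered 2 with no filter on dim probes, 4 with the mean over probes and 1 to 7 with an array left out, and those that fell numbered 7 with no filter and 4 to 15 with an array left out. In mimic against control-miRNA 7 rose and 2 fell with normexp, and 0 to 4 rose and 0 to 6 fell with an array left out. In mimic against IRI those that rose numbered 12 with no filter, 0 with brightness, 0 with only the compared arrays and 0 to 6 with an array left out, and those that fell numbered 1 with quantile normalization, 1 with the deposited ratios, 0 with the mean over probes, 0 with brightness, 0 with only the compared arrays and 0 to 7 with an array left out. The causes were not tested. In a fit without an array the lone mouse of its group was assumed to vary like the others. No paired analysis was possible because the groups share fewer than 2 mouse numbers.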
